A study of Mus musculus with 16 samples.

Results

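Macrophages and the lipid-filled foam cells that they become were followed through 36 marker genes in the aorta of atherosclerosis-prone mice. The markers were taken as the probe sets whose platform annotation gave exactly 1 of the 36 gene symbols, among 18194 symbols on the array. Of the 36 symbols, 35 had such a probe set (66 probe sets in all), and Spp1, which encodes the secreted matrix protein osteopontin, was not analysed here. Each of these 35 genes passed the filter on low signal, a mean signal above 381.5 over all arrays, and was among the 11042 genes tested. Clec4e passed it although its mean in non-diabetic mice, 360.5, lay below that value.

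Whole aorta was profiled in 16 mice at 18 weeks of age, 1 Affymetrix array per mouse, in 4 groups of 4. They were diabetic mice given ruboxistaurin (RBX, also LY333531) in the diet, diabetic mice without it, non-diabetic mice given RBX, and non-diabetic mice without it. RBX inhibits protein kinase C beta, and the sources used here give no dose. Diabetes was brought on at 6 weeks of age with streptozotocin (STZ), which kills insulin-producing beta cells, so that the model is one of insulin lack. All mice, those without diabetes or RBX included, were ApoE-/- and had a high fat diet for 10 weeks, from 8 weeks of age onwards. Apolipoprotein E is itself made by macrophages and carries lipid out of them, so every group lacked it, and no group had the wild-type gene or another diet. The design asks how diabetes and inhibition of the kinase alter the atherosclerotic aorta, and the replicates were separate mice.

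In an atherosclerotic artery, monocytes enter the wall, become macrophages and take up modified lipoproteins through scavenger receptors. Their lysosomes break the lipoproteins down, and cells that store the cholesterol as droplets are called foam cells. Activating Fc receptors, TREM2 and Mincle signal in these cells through ITAM adaptors and the kinase Syk, and the receptor for colony-stimulating factor 1 keeps the cells alive. The transcription factor PU.1 switches on many macrophage genes.

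The markers were among the brighter genes of the aorta. By mean signal over the 16 arrays, 18 of the 35 lay above the 90th percentile of the genes tested, and 3 below the 20th. Lyz1 and Lyz2, the lysozyme genes, averaged 177396 and 130999, Lgals3, encoding galectin-3, averaged 105172, and Gpnmb, a lysosomal glycoprotein of lipid-laden macrophages, averaged 100754. At the low end were Clec4e at 752.1, the integrin gene Itgam at 714.1 and the fractalkine receptor gene Cx3cr1 at 654.7. These are intensities of different probe sets, which bind with different strength, so their order across genes is not an order of transcript numbers. The brightest Lyz1 probe sets are of a type that can also bind close relatives, and another Lyz1 probe set averaged between 373.2 and 510.4 in the 4 groups. Signal from Lyz1 therefore cannot be told apart from that of Lyz2, its near-identical neighbour.

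Non-diabetic mice without RBX had the lowest mean of the 4 groups for 34 of the 35 markers, and Cx3cr1, lowest in diabetic mice, was the exception. The highest mean was in non-diabetic RBX mice for 29 markers and in diabetic mice for 4 (Cd84, Clec4d, Msr1 and Itgam). It was in diabetic RBX mice for Ly86 and in non-diabetic mice for Cx3cr1. This order of group means did not hold for every mouse, as the heat map of the 35 genes shows. In bulk tissue, fewer macrophages and less of each RNA per macrophage cannot be told apart. The arrays of non-diabetic mice without RBX also had the lowest mean signal of the 4 groups for cre, a control transcript added at hybridisation, at 187700. How far the order of group means follows from such differences between arrays was not tested. The share of all genes with their lowest mean in that group is not given here.

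**Figure D1:**
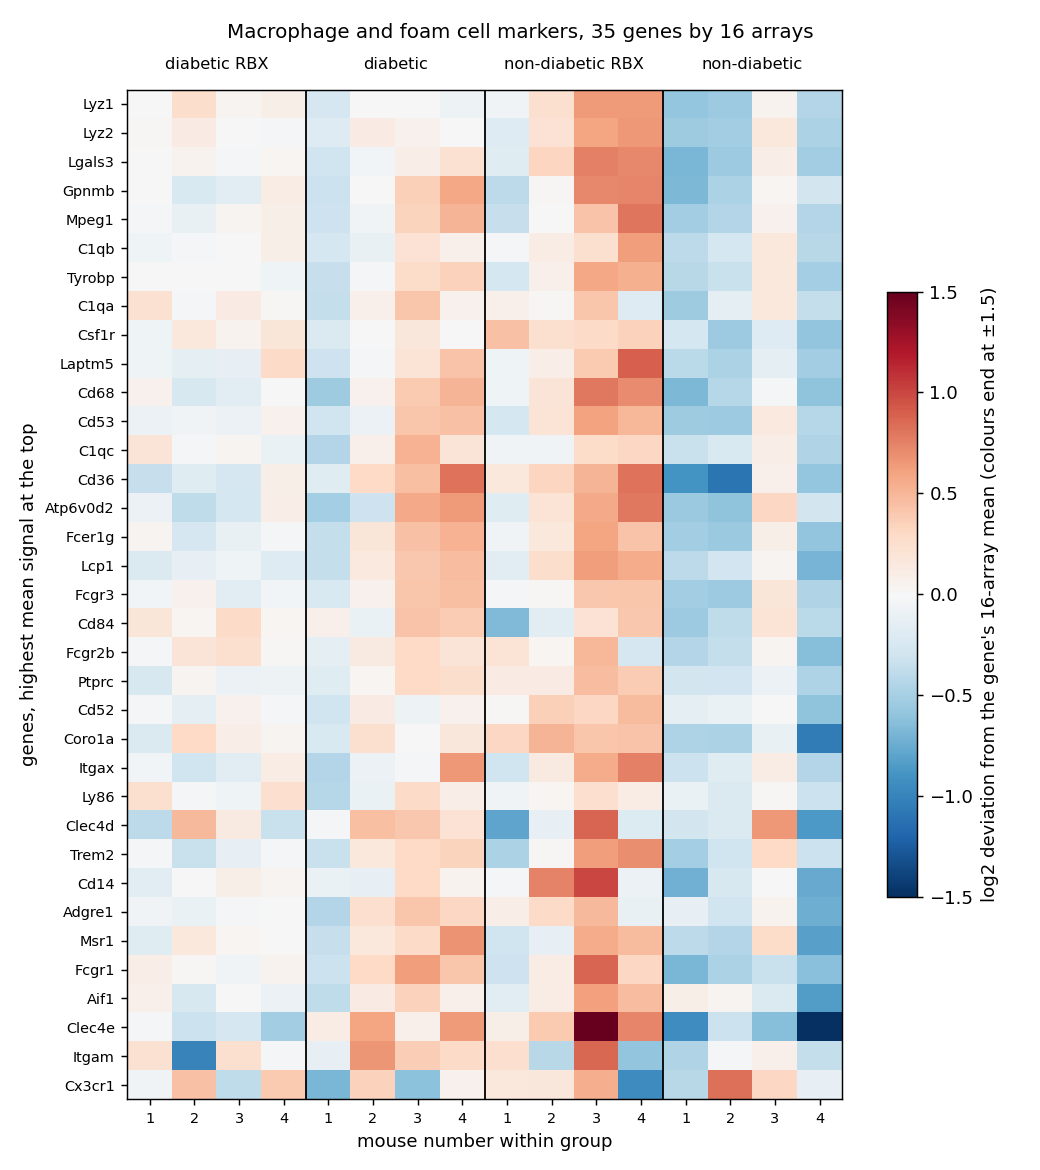
Each row is 1 marker, with the highest mean signal at the top, and each column 1 of the 16 mice, grouped as labelled. Colour gives the log2 signal minus the gene's mean over 16 arrays. Non-diabetic mice 1, 2 and 4 and diabetic mouse 1 are blue in most rows, non-diabetic RBX mice 3 and 4 are red in most rows, and the diabetic RBX mice stay close to white.

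A mean of the log2 deviations over the 35 markers was taken for each mouse as a summary. It was -0.03, -0.06, -0.03 and 0.02 in the diabetic RBX mice, against -0.29, 0.10, 0.27 and 0.32 in the diabetic mice. It was -0.10, 0.14, 0.59 and 0.38 in the non-diabetic RBX mice, against -0.46, -0.34, 0.06 and -0.56 in the non-diabetic mice. The diabetic RBX mice thus lay inside the range of the diabetic mice, and non-diabetic mouse 3 lay inside that of the non-diabetic RBX mice.

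**Figure D2:**
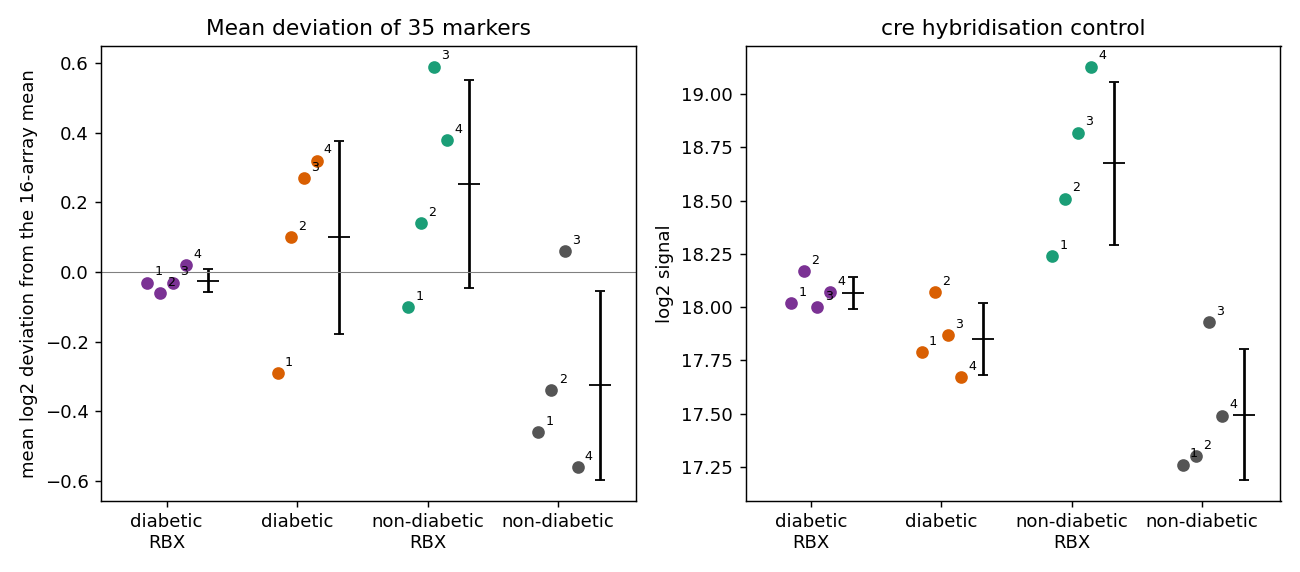
Left, mean log2 deviation of the 35 markers in each mouse. Right, log2 signal of the cre hybridisation control on the same array. Numbers are mice, and bars give the mean ± SD of 4 mice. The marker mean runs from -0.06 to 0.02 in diabetic RBX mice, from -0.29 to 0.32 in diabetic mice, from -0.10 to 0.59 in non-diabetic RBX mice and from -0.56 to 0.06 in non-diabetic mice.

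The diabetic RBX mice were alike in their markers. For 29 of the 35 the SD of log2 signal within a group was smallest there, while that held for 30% of all genes tested. The median SD of the markers was 0.13 in diabetic RBX, 0.32 in diabetic, 0.39 in non-diabetic RBX and 0.31 in non-diabetic mice. Over all genes it was 0.19, 0.20, 0.26 and 0.18 in the same groups. Markers move together from mouse to mouse, so the 29 are not 29 separate observations, and no test was made.

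Within the other groups, single mice were the lowest or highest for many of the markers. Diabetic mouse 1 was the lowest of its group for 32 of the 35 markers, against 28.6% of all genes. Non-diabetic RBX mouse 1 was the lowest of its group for 27, against 24.4% of all genes, while mouse 3 was the highest for 19 (23.6% of all genes) and mouse 4 for 14 (26.8%). Mouse 4 was also the lowest for 6. Non-diabetic mouse 3 was the highest of its group for 32, against 29.9% of all genes, while the lowest was mouse 4 for 19 (28.2% of all genes), mouse 1 for 12 and mouse 2 for 4.

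Compared with non-diabetic mice, diabetic mice without RBX had a higher mean of 34 of the 35 markers, but none passed the test. A gene was called when limma gave an adjusted p under 0.05 over the 11042 genes. At an unadjusted p under 0.05 there were 20 markers, all higher in diabetic mice, and 15.2% of all genes. The median log2 fold change of the markers was 0.44, against 0.013 for all genes, and of all genes 0.326% rose. Cd36 came nearest, at 0.97 (SE 0.22, adjusted p = 0.0525). The groups did not overlap for Clec4e and Fcgr1, higher in diabetic mice, as for 4.56% of all genes.

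That count of 0 depended on single mice. Without non-diabetic mouse 3 there were 7 markers called (Cd36, Coro1a, Csf1r, Fcer1g, Fcgr1, Fcgr2b and Fcgr3), and without diabetic mouse 1 also 7 (Cd36, Cd68, Coro1a, Csf1r, Fcer1g, Fcgr1 and Ptprc). The count was 2 without non-diabetic RBX mouse 1, 3 without mouse 3 of that group and 1 without its mouse 4, as these arrays share in the estimate of the spread. With array weights, which limma estimates from how far each array lies from its group means in these same data, 21 markers were called. Such weights are no separate measure of array quality. The share of all genes called in these fits is not given here. Taking the signal of the cre hybridisation control as a covariate left 7 markers at an unadjusted p under 0.05, at a median of 0.19. Of all genes 4 were then called, against 72 without it. The 3' to 5' ratio of Actb as a covariate left 15 markers at an unadjusted p under 0.05, at a median of 0.38, and 21 genes called.

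RBX in diabetic mice moved none of the markers past the threshold. Against diabetic mice, 25 of the 35 were lower in diabetic RBX mice, with a median log2 fold change of -0.12. Of all genes 0.0362% fell. A single marker had an unadjusted p under 0.05, Cd36, at -0.52 (SE 0.22, adjusted p = 0.485), as had 9.18% of all genes. Only Clec4e had groups that did not overlap, with 618.1, 504.9, 532.5 and 442.4 in diabetic RBX mice against 682.4, 954.4, 669.1 and 981.6 in diabetic mice. The same held, lower in diabetic RBX mice, for 3.65% of all genes. The median standard error of the markers was 0.19. Under the cre covariate the median fold change was -0.25, and 3 of the 35 markers were above 0. An unadjusted p under 0.05 was then found for 7 markers, and no marker was called. Of all genes 16 were called in that fit, against 5 without the covariate. For Csf1r the 95% interval of the difference ran from -0.13 to 0.31, and for Cd68 from -0.64 to 0.25.

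RBX in non-diabetic mice raised 22 of the 35 markers and lowered none, at a median log2 fold change of 0.55 against 0.032 for all genes. Of all genes 16.5% rose in this comparison, so the background was high. With the signal of the cre hybridisation control as a covariate none of the 22 calls remained and the median was -0.05, and with the 3' to 5' ratio of Actb none remained at a median of 0.51. Neither measure overlapped between these 2 groups of arrays. At an unadjusted p under 0.05 there were 28 markers, all of them higher with RBX, and 42.7% of all genes. The groups did not overlap for 8 markers (Cd36, Cd52, Clec4e, Coro1a, Csf1r, Fcgr1, Laptm5 and Ptprc), as for 14.3% of all genes. Both this comparison and that of diabetes without RBX use the same 4 non-diabetic arrays, so the like direction of the 2 sets of fold changes is no second observation.

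**Figure D3:**
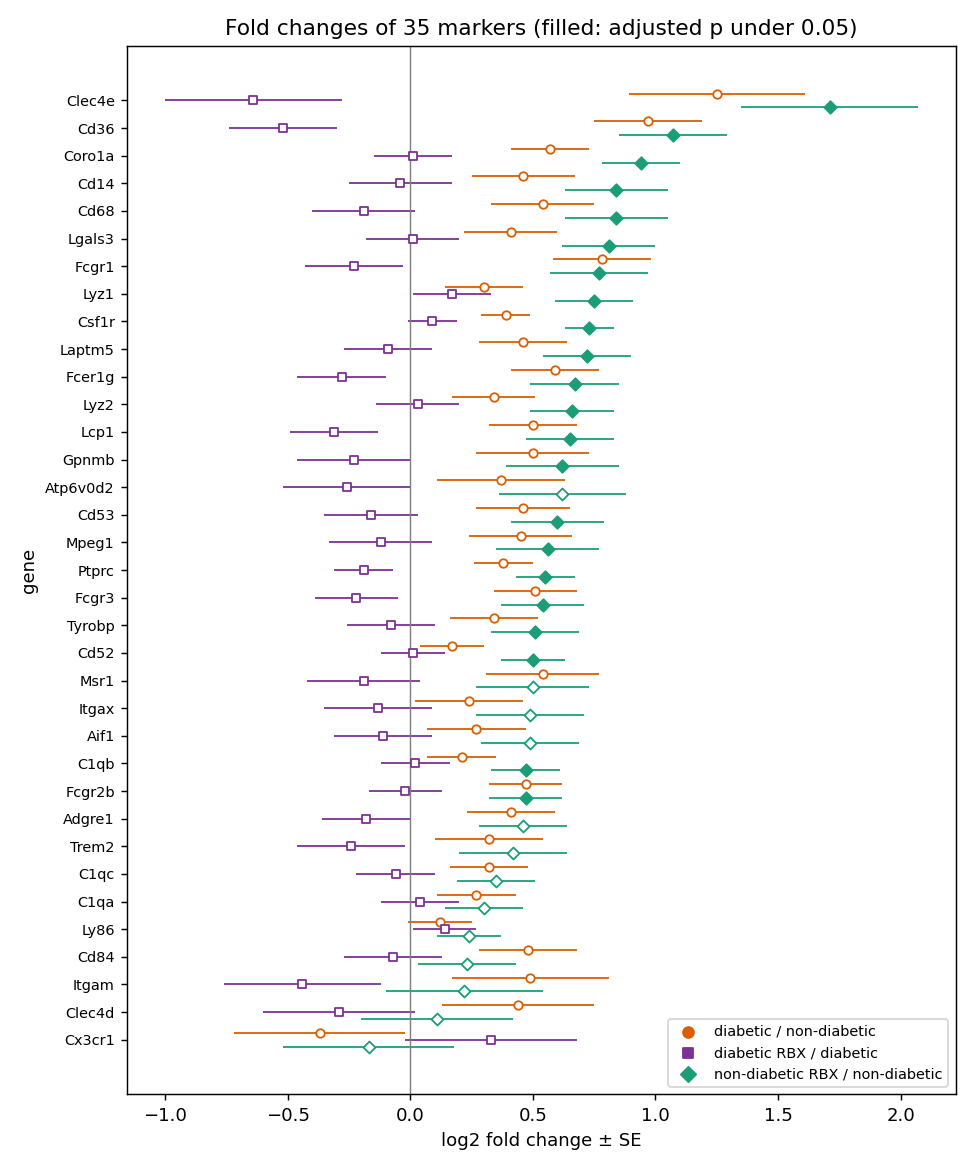
Log2 fold change of each of the 35 markers with its standard error, for diabetic over non-diabetic mice, diabetic RBX over diabetic mice and non-diabetic RBX over non-diabetic mice. Filled points have an adjusted p under 0.05. The 22 filled points all belong to RBX in non-diabetic mice and lie to the right of 0, with Clec4e at 1.71 and Cd36 at 1.07 farthest out. The comparisons with non-diabetic mice share the non-diabetic arrays, and those with diabetic mice the diabetic arrays.

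The array controls moved with the groups. The cre control, a bacteriophage transcript added at hybridisation and the brightest probe set on 16 of 16 arrays, averaged 274245 in diabetic RBX, 237370 in diabetic, 430027 in non-diabetic RBX and 187700 in non-diabetic arrays. It ran from 308745 to 575618 in non-diabetic RBX arrays and from 156465 to 249020 in non-diabetic arrays, with no overlap. The 3' to 5' signal ratio of the Actb control on the log2 scale, which rises as RNA or labelling shortens, ran from 1.67 to 2.51 in non-diabetic RBX arrays and from 0.85 to 1.32 in non-diabetic arrays. Prkcb, the gene of the kinase that RBX inhibits, passed in no comparison. Apoe fell in diabetic RBX against non-diabetic RBX mice, at -1.87 (adjusted p = 0.0462), and its effect of RBX was lower in diabetic than in non-diabetic mice, at -2.54 (adjusted p = 0.0418), but whether its probe set lies outside the disrupted part of the gene is not stated, so it does not check the genotype. Every array had been scaled to a trimmed mean of 1500.01.

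With log2 cre as a covariate, 5 markers had an unadjusted p under 0.05 for RBX in non-diabetic mice, and the median standard error of the 35 was 0.33, against 0.19 without it. None of the 11042 genes was then called for RBX in non-diabetic mice or for the difference between the RBX effects. Cre separates the non-diabetic groups completely, so its part and that of RBX cannot be told apart there. With the Actb ratio as a covariate 9 markers had an unadjusted p under 0.05 and 174 genes were called. There the median fold change, 0.51, was close to the 0.55 without it, 33 of the 35 markers were above 0, and the median standard error was 0.37. Within groups cre and markers did not always rank alike. In the diabetic group mouse 4 had the lowest cre signal and the highest marker mean, and in the non-diabetic group mouse 3 had the highest of both.

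**Figure D4:**
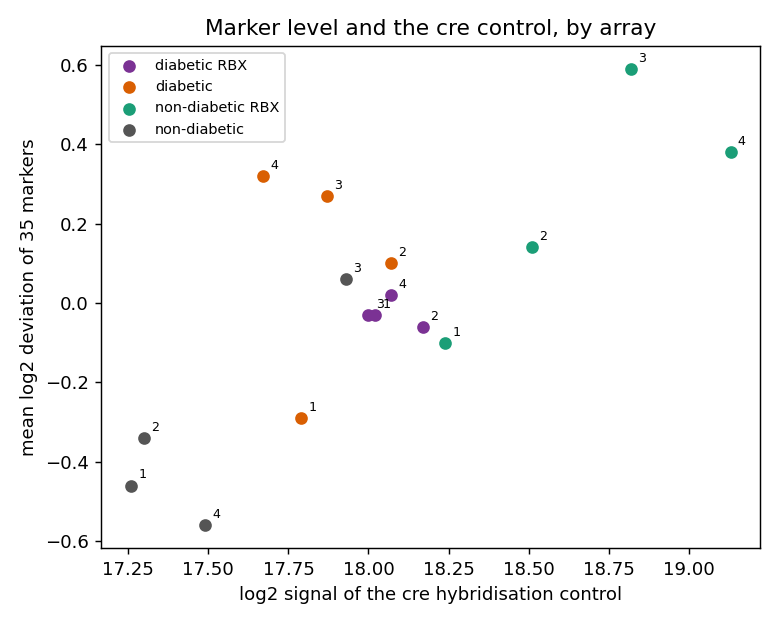
Mean log2 deviation of the 35 markers (vertical) against the log2 signal of the cre hybridisation control (horizontal), 1 point per array, numbered by mouse. Non-diabetic arrays 1, 2 and 4 lie at the lower left, array 3 among the diabetic arrays, and the non-diabetic RBX arrays at the right. The 4 diabetic arrays span -0.29 to 0.32 vertically at cre signals between 207830 and 275438.

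Of the 22 markers, 14 kept their call whichever of the 16 arrays was left out (Cd14, Cd36, Cd52, Cd68, Clec4e, Coro1a, Csf1r, Fcer1g, Fcgr1, Laptm5, Lgals3, Lyz1, Lyz2 and Ptprc). The other 8 lost it without at least 1 array. Lcp1 lost it without non-diabetic mouse 4. C1qb lost it without non-diabetic mouse 1 or 4 or non-diabetic RBX mouse 4. Cd53, Fcgr3 and Tyrobp lost it without non-diabetic mouse 1, 2 or 4 or non-diabetic RBX mouse 3 or 4. Fcgr2b lost it without non-diabetic mouse 1, 2 or 4 or non-diabetic RBX mouse 1 or 3. Gpnmb and Mpeg1 lost it in 11 of the 16 cases, any diabetic RBX array among them. The count was lowest, at 14, without non-diabetic mouse 4.

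Diabetic RBX mice, set against non-diabetic RBX mice, had a lower mean of 30 of the 35 markers at a median log2 fold change of -0.29, and none passed. Of all genes 2.66% fell. Unadjusted p was under 0.05 for 9 markers, all lower in diabetic RBX mice, and for 24% of all genes, and Clec4e had the smallest adjusted p, with -1.10 (SE 0.36, adjusted p = 0.0704). For 5 markers (Cd36, Clec4e, Coro1a, Csf1r and Ptprc) the diabetic RBX values lay wholly below the non-diabetic RBX values, as for 6.25% of all genes. Without non-diabetic RBX mouse 1 the fall passed for 3 markers (Clec4e, Lcp1 and Lgals3), and without non-diabetic mouse 3 for Cd36. For these fits the share of all genes that fell is not given here.

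The effect of RBX differed with diabetes for 11 markers. The difference was taken as the RBX effect in the diabetic state minus the RBX effect in the non-diabetic state, so a negative value means a smaller rise, or a fall, in diabetic mice. The difference passed below 0 for Cd36, Cd68, Clec4e, Coro1a, Csf1r, Fcer1g, Fcgr1, Fcgr3, Laptm5, Lcp1 and Ptprc, and above 0 for none. Of all genes 5.5% passed below 0. The median over the 35 was -0.66, and 25 had an unadjusted p under 0.05, as had 27.9% of all genes. With the cre covariate the count was 0 and the median -0.06, and with the Actb ratio the count was 1 (Clec4e) and the median -0.62. Whichever array was left out, 5 of the 11 remained called (Cd36, Clec4e, Coro1a, Csf1r and Ptprc). The count was 5 without diabetic mouse 3 or non-diabetic mouse 4, 6 without non-diabetic mouse 2, and 7 without diabetic RBX mouse 2 or 3, diabetic mouse 4 or non-diabetic mouse 1. It was 17 without diabetic mouse 1, 18 without non-diabetic mouse 3 and 21 without non-diabetic RBX mouse 1. For the fits with an array left out, the share of all genes called is not given here.

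Averaged over mice with and without RBX, diabetes moved no marker past the threshold (2 at an unadjusted p under 0.05, and 9.92% of all genes), at a median of 0.07, and 0.0725% of all genes rose. Averaged over diabetic and non-diabetic mice, RBX raised 5 markers (Csf1r, Coro1a, Lyz1, Lgals3 and Lyz2), while 9.41% of all genes rose. These averages join unlike effects. In non-diabetic mice RBX gave 0.73 for Csf1r, 0.94 for Coro1a, 0.75 for Lyz1, 0.81 for Lgals3 and 0.66 for Lyz2. In diabetic mice it gave 0.09, 0.01, 0.17, 0.01 and 0.03 for the same genes, and none passed there. With cre as a covariate the count was 0 and the median -0.18, against 0.20 without it, and with the Actb ratio the count was 0 and the median 0.18. Csf1r was the clearest of them, at 0.41 (SE 0.07, adjusted p = 0.00109). Lyz1 stood at 0.46 (SE 0.11, adjusted p = 0.00708). The calls of Coro1a, Csf1r and Lyz1 held without any 1 array, and those of Lgals3 and Lyz2 were lost in 9 and 13 of the 16 cases. The count was 3 without diabetic RBX mouse 2 or 4, diabetic mouse 1, non-diabetic RBX mouse 3 or non-diabetic mouse 1, 2 or 4, 8 without non-diabetic RBX mouse 1 and 10 without non-diabetic mouse 3. For these fits too the share of all genes called is not given here.

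Among growth factor, chemokine and adhesion receptors, Csf1r rose with RBX in non-diabetic mice, as did 16.5% of all genes. The other 5 did not pass. Csf1r encodes the receptor for colony-stimulating factor 1, on which macrophage survival depends. Its signal was 27834, 32288, 30241 and 32969 in diabetic RBX mice, against 24973, 29097, 32587 and 29229 in diabetic mice. It was 39397, 34253, 35522 and 36836 in non-diabetic RBX mice, against 24114, 19870.5, 25429 and 19214 in non-diabetic mice. Each non-diabetic RBX mouse lay above every mouse of the other 3 groups, and the non-diabetic mice overlapped only with the lowest diabetic mouse.

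The log2 fold change of Csf1r with RBX was 0.73 (SE 0.10, adjusted p = 7.06e-05) in non-diabetic and 0.09 (SE 0.10, adjusted p = 0.83) in diabetic mice. The difference between both effects was -0.64 (SE 0.15, adjusted p = 0.0106). The other Csf1r probe sets above the filter gave log2 fold changes of 0.93 and 0.40 for RBX in non-diabetic mice. For diabetes without RBX, Csf1r gave 0.39 (SE 0.10, adjusted p = 0.0759), which did not pass.

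Adgre1, the gene of the macrophage surface protein F4/80, and the integrins Itgax (CD11c) and Itgam (CD11b) did not pass for RBX in non-diabetic mice. Adgre1 measured 5390 ± 949 in non-diabetic RBX mice and 3937 ± 860 in non-diabetic mice (mean ± SD, n = 4 each), a difference on the log2 scale of 0.46 (SE 0.18, adjusted p = 0.0565). Itgax measured 10005 ± 3080 in non-diabetic RBX mice against 6915 ± 1170 in non-diabetic mice, at 0.49 (SE 0.22, adjusted p = 0.0897). Cd84, a SLAM-family receptor of leukocytes, stood at 0.23 (SE 0.20, adjusted p = 0.383). Itgam and Cx3cr1 were dim and had the widest errors among these 6 receptors, with 0.22 (SE 0.32, adjusted p = 0.64) for Itgam and -0.17 (SE 0.35, adjusted p = 0.748) for Cx3cr1. Cx3cr1, the receptor by which monocytes bind fractalkine, was the 1 marker with a negative value both for diabetes without RBX and for RBX in non-diabetic mice.

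Scavenger and pattern receptors held the largest fold changes. Cd36 encodes a scavenger receptor for oxidised lipoproteins that takes up fatty acids in other cells too. Its signal was 11919.8, 13326, 12731 and 16086 in diabetic RBX mice, against 13351, 18647, 20774 and 26750.2 in diabetic mice. It was 16874, 18896, 21609 and 26586 in non-diabetic RBX mice, against 8153, 7106, 16020.1 and 10136 in non-diabetic mice. The diabetic RBX mice lay wholly below the non-diabetic RBX mice. The highest non-diabetic mouse (mouse 3) lay within the range of the diabetic mice and just below the lowest non-diabetic RBX mouse.

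Cd36 rose with RBX in non-diabetic mice by 1.07 (SE 0.22, adjusted p = 0.00153), and the effect of RBX in diabetic minus non-diabetic mice was -1.59 (SE 0.31, adjusted p = 0.00362). On the log2 scale its 2 other probe sets above the filter gave 1.39 and 1.53 for RBX in non-diabetic mice and -1.95 and -1.80 for that difference. Cd36 is made in adipocytes, endothelium and platelets as well. The summed signal of 4 white adipocyte markers ran from 12792 to 53745 in non-diabetic RBX mice and from 13098 to 22245 in non-diabetic mice, with 2 of the 4 risen. That of 4 platelet markers ran from 20001 to 35237 in non-diabetic RBX mice and from 9693 to 14656 in non-diabetic mice, with 4 of 4 risen. Of all genes 16.5% rose in this comparison, and the part of these cell types in the Cd36 result was not tested.

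Clec4e and Clec4d encode Mincle and MCL, C-type lectin receptors that pair with the adaptor FcR gamma and bind microbial glycolipids. Clec4e measured 674.7, 828.0, 2655 and 1049 in non-diabetic RBX mice, against 330.5, 506.9, 407.2 and 197.4 in non-diabetic mice. All 4 RBX mice lay above all 4 others, with mouse 3 far above the rest, and the log2 fold change was 1.71 (SE 0.36, adjusted p = 0.00163). The difference between the effects of RBX in diabetic and non-diabetic mice was -2.35 (SE 0.51, adjusted p = 0.00662). A second Clec4e probe set, below the filter on signal, gave 0.39 (SE 0.82) and -0.91 (SE 1.15) for these 2 comparisons.

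Clec4d, the neighbouring gene, did not pass in any comparison. It measured 3084, 4901, 9749 and 4617 in non-diabetic RBX mice, against 4405, 4597, 8348 and 2928 in non-diabetic mice, groups that overlapped, at 0.11 (SE 0.31, adjusted p = 0.806). The log2 ratio of Clec4e to Clec4d averaged -2.19 ± 0.28 in non-diabetic RBX mice and -3.79 ± 0.49 in non-diabetic mice (SD, n = 4 each). The difference of 1.60 gave p = 0.0286 in an exact two-sided permutation test, the smallest p that 70 assignments allow, and 0.153 after adjustment over the 16 ratios compared. This pair was chosen after its values were seen.

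Of the remaining receptors, Cd14, the co-receptor that hands lipopolysaccharide to TLR4, rose with RBX in non-diabetic mice. It measured 4791, 8121, 9722 and 4557 in non-diabetic RBX mice, against 2939, 4096, 4845 and 2871 in non-diabetic mice, at 0.84 (SE 0.21, adjusted p = 0.00605). Mice 2 and 3 carried the high values, and mice 1 and 4 of the RBX group lay within the range of the non-diabetic mice. Msr1, the class A scavenger receptor, did not pass, at 0.50 (SE 0.23, adjusted p = 0.11). Nor did Ly86, which encodes the MD-1 partner of the receptor CD180, at 0.24 (SE 0.13, adjusted p = 0.177).

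**Figure D5:**
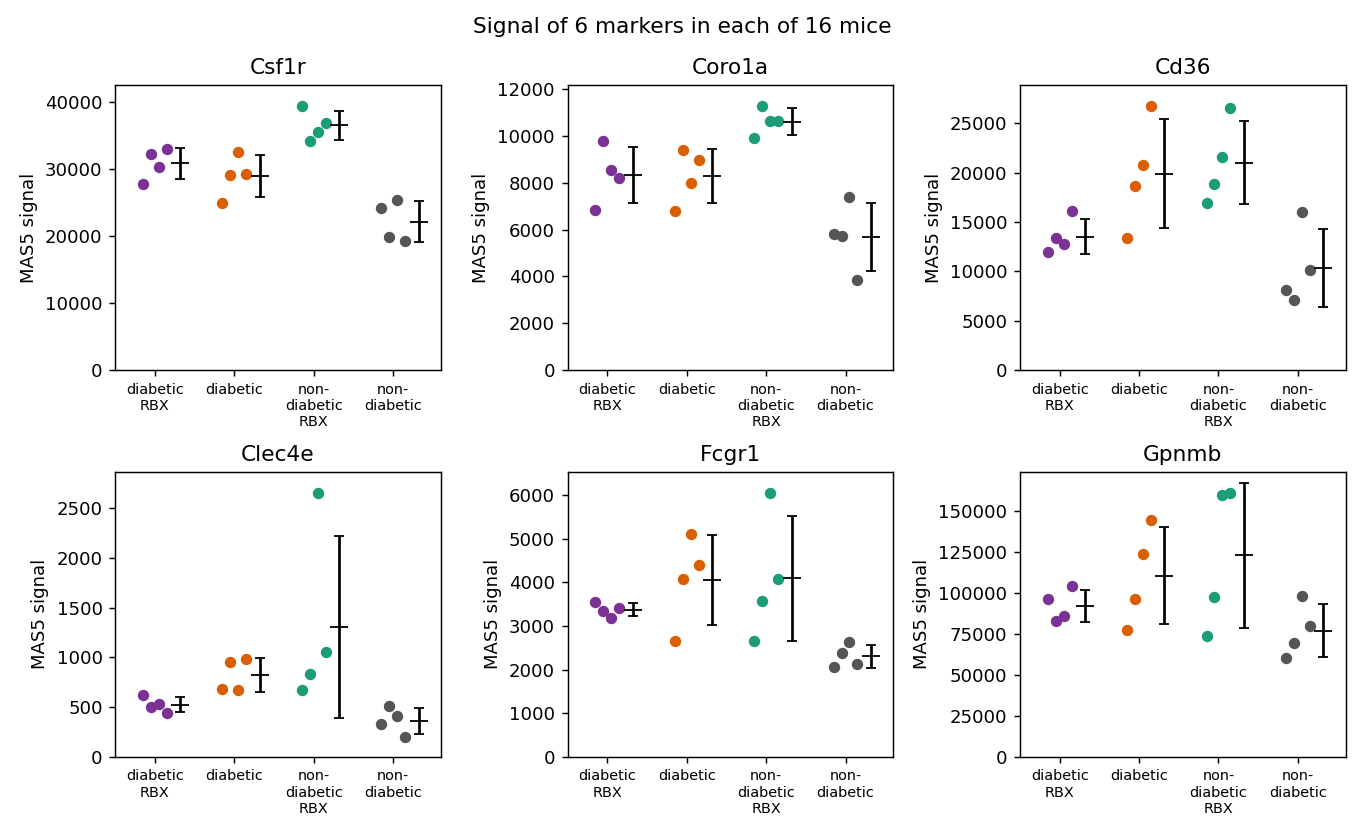
MAS5 signal of Csf1r, Coro1a, Cd36, Clec4e, Fcgr1 and Gpnmb in every mouse, on linear axes from 0, with the mean ± SD of 4 mice beside each group. In Csf1r and Coro1a the 4 non-diabetic RBX mice lie above all other groups. In Clec4e they lie above the non-diabetic mice, 674.7 to 2655 against 197.4 to 506.9, and in Gpnmb the groups overlap.

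Of the Fc receptors and ITAM adaptors, 5 of 6 rose with RBX in non-diabetic mice, against 16.5% of all genes. For the difference between the RBX effects 3 of 6 passed below 0, against 5.5% of all genes. None of these calls remained with the cre covariate. Fcgr1, the high-affinity receptor for immunoglobulin G, measured 3540.2, 3345, 3192 and 3423 in diabetic RBX mice, against 2648, 4079, 5110.5 and 4406 in diabetic mice. It measured 2663, 3562, 6054 and 4086 in non-diabetic RBX mice, against 2060.5, 2389, 2633 and 2134 in non-diabetic mice. The non-diabetic mice lay below every other mouse, and the highest of them, at 2633, was close to the lowest diabetic mouse, at 2648. The diabetic RBX mice were the most alike.

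Fcgr1 rose with RBX in non-diabetic mice by 0.77 (SE 0.20, adjusted p = 0.00843), and the difference between both RBX effects was -1.0 (SE 0.29, adjusted p = 0.0327). Fcer1g, the gamma chain through which Fc receptors and Mincle signal, rose by 0.67 (SE 0.18, adjusted p = 0.00941), with a difference of -0.96 (SE 0.26, adjusted p = 0.023). Fcgr3, the low-affinity activating receptor, rose by 0.54 (SE 0.17, adjusted p = 0.0208), with a difference of -0.76 (SE 0.24, adjusted p = 0.0453). Fcgr2b, the inhibitory receptor, rose by 0.47 (SE 0.15, adjusted p = 0.025) and did not pass for the difference. Its 3 other probe sets above the filter gave 0.18 (SE 0.11), 0.29 (SE 0.17) and 0.59 (SE 0.18) for RBX in non-diabetic mice. Tyrobp, the adaptor DAP12, rose by 0.51 (SE 0.18, adjusted p = 0.0393), while its partner Trem2, a lipid-sensing receptor of foam cells, stood at 0.42 (SE 0.22, adjusted p = 0.157) and did not pass.

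The subunits of C1q, the opsonin that starts the classical complement pathway, differed little. C1qb rose with RBX in non-diabetic mice by 0.47 (SE 0.14, adjusted p = 0.0182). C1qa and C1qc did not pass, at 0.30 (SE 0.16, adjusted p = 0.169) and 0.35 (SE 0.16, adjusted p = 0.111). In the other comparisons none of the 3 passed. C1qb measured 43752 ± 1940 in diabetic RBX, 43355 ± 6250 in diabetic, 52298 ± 10600 in non-diabetic RBX and 37774 ± 7550 in non-diabetic mice (mean ± SD, n = 4 each).

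Genes of the lysosome, of lipid-laden macrophages and of secreted products rose with RBX in non-diabetic mice for 6 of 7 measured. Lyz1 and Lyz2, whose signals cannot be told apart, are both among the 6. Of all genes 16.5% rose there, and none of the calls remained with the cre covariate. Lyz2 measured 111956, 148529, 191569 and 200098 in non-diabetic RBX mice, against 88533, 88689.5, 141848 and 91638 in non-diabetic mice, at 0.66 (SE 0.17, adjusted p = 0.0062). Lgals3 measured 89398, 126439, 171155 and 166581 in non-diabetic RBX mice, against 62872, 69712, 108631 and 70855 in non-diabetic mice, at 0.81 (SE 0.19, adjusted p = 0.00304). In both genes the high non-diabetic mouse (mouse 3) lay above the lowest RBX mouse (mouse 1), so the groups overlapped although the change passed.

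Cd68, a lysosomal membrane protein used to stain macrophages in plaques, measured 25639, 20638, 21783 and 24612 in diabetic RBX mice, against 16847, 25682, 32180.2 and 34865 in diabetic mice. It measured 23375, 28050.1, 42389 and 40157 in non-diabetic RBX mice, against 15356, 18236, 23888 and 16095 in non-diabetic mice. Cd68 rose with RBX in non-diabetic mice by 0.84 (SE 0.21, adjusted p = 0.00579), and the difference between the RBX effects was -1.04 (SE 0.30, adjusted p = 0.0318). It was the 1 gene of this group to pass for that difference. In the diabetic groups the values with RBX lay inside the range of those without.

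Gpnmb measured 73679.8, 97774, 159682 and 161274 in non-diabetic RBX mice, against 60471, 69528, 98438 and 79609.9 in non-diabetic mice. Mice 3 and 4 of the RBX group were above all non-diabetic mice, while mice 1 and 2 lay within the range of the non-diabetic mice, and the change just passed at 0.62 (SE 0.23, adjusted p = 0.0451). Mpeg1, the pore-forming perforin-2 of macrophages, also just passed, at 0.56 (SE 0.21, adjusted p = 0.047). Atp6v0d2, a subunit of the proton pump that acidifies lysosomes, had a fold change as large as that of Gpnmb but a larger error, and did not pass (0.62 (SE 0.26, adjusted p = 0.0721)). Lyz1 rose by 0.75 (SE 0.16, adjusted p = 0.00155).

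Of the pan-leukocyte and cytoskeletal genes, 6 of 7 rose with RBX in non-diabetic mice, against 16.5% of all genes. For the difference between the RBX effects 4 of 7 passed below 0, against 5.5% of all genes. None of these calls remained with the cre covariate. Coro1a, the actin-binding coronin of leukocytes, measured 6842, 9784, 8551 and 8207 in diabetic RBX mice, against 6782, 9420.1, 7998 and 8991 in diabetic mice. It measured 9902, 11289, 10644 and 10666 in non-diabetic RBX mice, against 5796, 5736, 7390.4 and 3858 in non-diabetic mice. All non-diabetic RBX mice lay above all other mice, whereas both diabetic groups covered nearly the same range.

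Coro1a rose with RBX in non-diabetic mice by 0.94 (SE 0.16, adjusted p = 0.000266), and the difference was -0.93 (SE 0.22, adjusted p = 0.0127). A second Coro1a probe set gave 0.70 and -0.83 for these comparisons. Ptprc, the gene of the pan-leukocyte phosphatase CD45, rose by 0.55 (SE 0.12, adjusted p = 0.00196), with a difference of -0.74 (SE 0.17, adjusted p = 0.00884). It measured 10856, 10846, 13782 and 13022 in non-diabetic RBX mice, against 8271, 8207, 9374 and 7229 in non-diabetic mice, which did not overlap.

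Laptm5, a lysosomal protein of blood cells, rose by 0.72 (SE 0.18, adjusted p = 0.00579), with a difference of -0.80 (SE 0.25, adjusted p = 0.048). Lcp1, the actin bundler L-plastin, rose by 0.65 (SE 0.18, adjusted p = 0.0123), with a difference of -0.96 (SE 0.26, adjusted p = 0.0238). The tetraspanin gene Cd53 rose by 0.60 (SE 0.19, adjusted p = 0.0233), and Cd52, a small glycoprotein of leukocytes, by 0.50 (SE 0.13, adjusted p = 0.00687). Aif1, which encodes the macrophage protein IBA1, did not pass, at 0.49 (SE 0.20, adjusted p = 0.0751).

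For 12 of the 35 markers other probe sets also lay above the filter, 20 in all. All 20 had the sign of the tested probe set for RBX in non-diabetic mice, for diabetes without RBX and for the difference between the RBX effects. For RBX in diabetic mice, where the fold changes were small, 15 of 20 did.

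Promoter windows, from 250 bases before to 50 after the RefSeq start site, were found for 28 of the 36 genes (assembly GRCm38.p6). They were searched on both strands for GAGGAAG, a core that PU.1 binds, and for TCACGTG, the E-box bound by the lysosomal regulators MITF and TFEB. Neither motif contains the other. GAGGAAG or its reverse complement was in the windows of 9 of the 28 genes, 32.1%, against 15.4% of all 27025 genes with a window. The genes were C1qc, Cd53, Clec4d, Fcgr1, Fcgr3, Itgam, Laptm5, Spp1 and Trem2. TCACGTG or its reverse complement was in none of the 28, against 4.29% of all genes. A match is a run of letters and not a shown binding site.

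The bases before the start site are shown for Fcgr1 and Laptm5, which rose with RBX in non-diabetic mice and hold the PU.1 letters near the start. They are also shown for the neighbours Clec4e, which rose, and Clec4d, which did not pass. Each run of 250 bases reads 5′ to 3′ on the strand of the gene, and capitals mark CTTCCTC, the reverse complement of GAGGAAG. In Fcgr1 (chr3:96293970-96294219, minus strand) the match starts at -56 from the start site, in Laptm5 (chr4:130913066-130913315, plus strand) at -39 and in Clec4d (chr6:123261857-123262106, plus strand) at -241. The window of Clec4e (chr6:123289872-123290121, minus strand) holds neither motif in full, though GAGGAA, without the last letter, occurs in it on both strands.
Fcgr1: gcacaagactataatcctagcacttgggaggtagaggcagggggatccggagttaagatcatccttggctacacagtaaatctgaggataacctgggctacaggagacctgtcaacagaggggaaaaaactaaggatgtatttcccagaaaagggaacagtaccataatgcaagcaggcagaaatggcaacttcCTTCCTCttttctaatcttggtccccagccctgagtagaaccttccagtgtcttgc
Laptm5: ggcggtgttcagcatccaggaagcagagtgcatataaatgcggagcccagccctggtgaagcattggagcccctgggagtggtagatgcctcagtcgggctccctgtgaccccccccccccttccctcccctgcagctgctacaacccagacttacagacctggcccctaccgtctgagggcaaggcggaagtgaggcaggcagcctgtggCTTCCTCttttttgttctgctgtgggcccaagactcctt
Clec4d: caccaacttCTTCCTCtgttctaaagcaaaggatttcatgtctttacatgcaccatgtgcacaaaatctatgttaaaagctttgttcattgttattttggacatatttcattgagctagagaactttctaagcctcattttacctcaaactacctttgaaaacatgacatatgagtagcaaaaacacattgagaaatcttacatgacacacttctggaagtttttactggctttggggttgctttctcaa
Clec4e: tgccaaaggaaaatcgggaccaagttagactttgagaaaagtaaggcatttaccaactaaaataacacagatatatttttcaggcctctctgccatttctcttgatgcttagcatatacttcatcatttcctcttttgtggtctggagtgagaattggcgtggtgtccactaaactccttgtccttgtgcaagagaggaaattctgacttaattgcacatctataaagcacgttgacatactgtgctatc

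Other genes of the same pathways were read from lists. Of 15 myeloid transcription factors 14 were tested, and 6 rose with RBX in non-diabetic mice, against 16.5% of all genes, at a median of 0.46. Under the cre covariate no gene of any list was called in that comparison or for the difference between the RBX effects. Cebpa, a regulator of myeloid fate, rose by 0.84 (adjusted p = 0.000566), and Nr1h3, the cholesterol sensor LXR alpha, rose by 0.86 (adjusted p = 0.000967). Spi1, the gene of PU.1, stood at 0.80 for diabetes without RBX (adjusted p = 0.0757), the smallest p of its list there. None of the 14 passed for diabetes without RBX or for RBX in diabetic mice.

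Of 12 genes of ITAM and Src/Syk signalling tested, which act below the Fc receptors, 8 rose with RBX in non-diabetic mice at a median of 0.62. Fermt3, the integrin activator kindlin-3, rose by 0.85 (adjusted p = 0.000436), and Syk itself by 0.81 (adjusted p = 0.0115). Of 10 ligands and co-receptors of the marker receptors 2 rose, a share near the 16.5% of all genes. They were Itgb2, the beta chain that pairs with Itgam and Itgax, by 0.89 (adjusted p = 0.00903) and Cd47, the signal that restrains phagocytosis, by 0.31 (adjusted p = 0.0251).

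Foam cell lipid handling had 9 of 14 genes risen with RBX in non-diabetic mice, against 16.5% of all genes, at a median of 0.62. Lpl, the lipase that frees fatty acids from lipoproteins, rose by 0.94 (adjusted p = 0.00124), and Fabp4, a fatty acid carrier of macrophages and adipocytes, by 1.23 (adjusted p = 0.00194). For the difference between the RBX effects 5 of 14 fell, against 5.5% of all genes. Plin2, the coat protein of lipid droplets, led them at -1.74 (adjusted p = 0.00651). Phagolysosome genes rose for 9 of 14, at a median of 0.53.

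Genes of resident and alternatively activated macrophages rose for 8 of 11 and fell for 1 with RBX in non-diabetic mice, at a median of 1.04. Of all genes 16.5% rose and 15.1% fell in this comparison. F13a1, the coagulation factor XIII A chain, rose by 1.26 (adjusted p = 6.84e-05), and Lyve1, a hyaluronan receptor, by 1.29 (adjusted p = 0.000113). This list also held rises in diabetic mice without RBX, where no marker passed and 0.326% of all genes rose. There Chil3, a secreted chitinase-like protein, rose by 1.83 (adjusted p = 0.0173) and Fcna, a ficolin, by 1.11 (adjusted p = 0.0478). Monocyte recruitment genes rose for 5 of 13 and fell for 1 with RBX in non-diabetic mice, and 1, Plac8, rose in diabetic mice without RBX, by 0.83 (adjusted p = 0.0246). For RBX in diabetic mice none of these lists held a gene that passed.

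Markers of other cell types moved in the same comparison of non-diabetic RBX with non-diabetic mice, in which 16.5% of all genes rose and 15.1% fell. Of 10 smooth muscle markers 7 fell and 1 rose, at a median of -1.05, and their summed signal ran from 307115 to 478046 in non-diabetic RBX mice against 464161 to 505746 in non-diabetic mice. Of 10 endothelial markers 9 rose, at a median of 0.72, with sums of 70941 to 100621 in non-diabetic RBX mice against 45371 to 52290 in non-diabetic mice. The 3 neutrophil markers above the filter, of 10 listed, rose, with sums of 8243 to 10719 in non-diabetic RBX mice against 2551 to 8320 in non-diabetic mice. Of 11 T and NK cell markers 1 was above the filter, at 453 to 730 in non-diabetic RBX mice against 387 to 506 in non-diabetic mice. Of 7 B cell markers 2 were above it, with sums of 1188 to 6510 in non-diabetic RBX mice against 1552 to 57626 in non-diabetic mice. The 2 mesothelial markers above the filter, of 4 listed, rose at a median of 2.53. Their sums were 2537 to 7256 in non-diabetic RBX mice against 319 to 1317 in non-diabetic mice. Rises were also called for 3 of 9 fibroblast, 1 of 6 brown adipocyte and 1 of 2 mast cell markers. The same held for 1 of 2 erythroid and 1 of 3 Schwann and neuron markers. No cardiac and skeletal muscle or dendritic cell marker was called. The part of these cell types in the marker result was not tested.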

How the data were processed

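Each of the 16 arrays (an Affymetrix mouse genome array) was hybridised with RNA from the aorta of 1 mouse. The deposited values are intensity per probe set on a linear scale, the MAS5 signal per the submitters' processing notes, and the sources used here give no version of it. The authors had scaled each array to a trimmed mean of 1500.01 (2% cut at each end), as the values show. Of 45101 probe sets, 34958 had 1 gene symbol, 932 had several, 9211 had none, and 64 were controls. No value column was left unmapped (0).

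Signals were taken to log2 without an offset. Non-control probe sets with a mean log2 signal above the median were kept, and the probe set with the highest mean stood for its gene. The 4 group means were fitted over all 16 arrays with limma 3.58.1 in R 4.3.3 (and the package data.table, version 1.17.8), with an intensity trend, 12 residual degrees of freedom and 6.2 prior ones. P-values were adjusted by Benjamini-Hochberg over 11042 genes. The method was tested on simulated data. The number of arrays limits the precision.

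The markers, the pathway lists and the tests were chosen with earlier results of these data known, so no direction seen again here is independent support. All 36 symbols are named. From a pathway or cell type list, up to 2 genes per comparison with the smallest p are named. Probe sets of Lyz1, C1qb, Laptm5, Clec4d, Trem2, Fcgr2b and Aif1 are of types that may bind similar transcripts. Alternatives changed the normalization, the filter, the choice of probe set, the trend, array weights, covariates, the groups fitted, the replicate block and the arrays left out. Promoter windows are RefSeq's.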

Additional observations from a re-analysis of the deposited data

Results flagged for a closer look

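Single mice stood apart within their group for 6 of the 140 sets of 4 values examined (35 markers in 4 groups). The gap to the nearest mouse, as a share of the group's range, was over Dixon's 95% critical value, which chance exceeds in about 1 in 20 groups. The 6 of 140 are a share no higher than that, and the share over all genes is not given here. Non-diabetic mouse 3 was the high one for Cd53 (24562.8), Fcer1g (15503.5), Fcgr3 (15393.2), Lyz2 (141847.8) and Mpeg1 (45087.6). These 5 come from 1 array and are not separate events. Diabetic RBX mouse 4 was the low one for Tyrobp, at 32516.7.

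The effect of RBX differed between diabetic and non-diabetic mice for 11 markers in the limma test of the difference itself (adjusted p under 0.05). The log2 effect in diabetic minus that in non-diabetic mice was -2.35 for Clec4e, -1.59 for Cd36, -1.04 for Cd68 and -1.0 for Fcgr1. It was -0.96 for both Fcer1g and Lcp1, -0.93 for Coro1a, -0.80 for Laptm5, -0.76 for Fcgr3, -0.74 for Ptprc and -0.64 for Csf1r. With the cre signal as a covariate 0 of the 11 passed, and with the Actb ratio Clec4e alone did.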

How the results depend on the processing

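The counts of markers called were sensitive to single arrays. Leaving out 1 array at a time, diabetes without RBX had 0 to 7 markers risen, RBX in non-diabetic mice 14 to 26, diabetes under RBX 0 to 3 fallen, the difference between the RBX effects 5 to 21 fallen and RBX averaged over both states 3 to 10 risen. RBX in diabetic mice and diabetes averaged had none called in any of these. The shares of all genes called in these fits are not given here.

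For diabetes without RBX, 1 marker rose under quantile normalization, 1 with the filter at the 70th percentile, 21 with array weights and 1 with only the groups compared fitted. With the 4 non-diabetic RBX arrays left out, an alternative chosen after seeing the data, 3 rose. With log2 cre as a covariate its median was 0.19. For RBX averaged, 3 rose with no filter, 3 with the mean of a gene's probe sets and 3 with no intensity trend. For diabetes under RBX, 1 fell with the mean of probe sets and 1 with only the groups compared. For the difference between the RBX effects, 7 fell with no trend and 19 with array weights. For none of these alternative fits is the share of all genes called given here, so the counts have no background beside them.

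With the cre covariate, RBX in non-diabetic mice had 0 risen (median -0.05), diabetes under RBX a median of 0.05, the difference 0 fallen (median -0.06) and RBX averaged 0 risen (median -0.18). The medians moved away from 0 for RBX in diabetic mice, to -0.25 from -0.12, and for diabetes averaged, to 0.14 from 0.07. The Actb ratio gave 0 risen, 1 fallen and 0 risen for RBX in non-diabetic mice, the difference and RBX averaged. Under cre the fold change for RBX in non-diabetic mice turned below 0, short of the threshold, for 13 called markers: C1qb (-0.25), Cd53 (-0.28), Cd68 (-0.02), Fcer1g (-0.03), Fcgr3 (-0.23), Gpnmb (-0.49), Laptm5 (-0.05), Lcp1 (-0.09), Lgals3 (-0.25), Lyz1 (-0.23), Lyz2 (-0.43), Mpeg1 (-0.48) and Tyrobp (-0.37). For RBX averaged it did so for Lgals3 (-0.22), Lyz1 (-0.12) and Lyz2 (-0.30). The cause was not tested. The rises with RBX in non-diabetic mice stayed within 1.5 times the count of 22 in 27 of 30 alternatives. The exceptions were the cre and Actb covariates, at 0 each, and the fit without non-diabetic mouse 4, at 14. Of the 30 alternatives 16 left out 1 array, some of them outside the comparison, so these are not separate checks. With no filter, the median of all genes for RBX in non-diabetic mice was 0.163, a shift of 0.131, and the fold changes there are relative to it.

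Over all genes tested, replicate numbers showed no clear pairing of the mice, and pairing in the markers alone was not tested. The correlation of same-numbered arrays ran from -0.14 to 0.112 over 16 pairs, with 1 over 0.1, and in 4 of the 16 an array correlated best with its own number. With the number as a replicate block, 2 markers rose for diabetes without RBX, 25 for RBX in non-diabetic mice and 7 for RBX averaged, and 2 fell for diabetes under RBX and 18 for the difference. How many of all genes the block fit called is not given here, so these counts have no background beside them.

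Precision is limited by 4 mice a group, and for Clec4e, Itgam and Cx3cr1 by low signal.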

Other observations

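The log2 ratio of Clec4e to Clec4d averaged -3.33 ± 0.49 in diabetic RBX mice and -2.19 ± 0.28 in non-diabetic RBX mice (SD, n = 4 each). The difference was -1.14 (exact permutation p = 0.0286, the smallest that 70 assignments allow, and 0.153 adjusted over the 16 ratios compared). The pair was chosen after its values were seen, so the test is no independent support. This comparison also shares the non-diabetic RBX arrays with the one of RBX in non-diabetic mice.

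Platelet markers were lower in diabetic RBX than in non-diabetic RBX mice for 4 of 4, at a median of -0.89, and smooth muscle markers were higher for 7 of 10, at a median of 1.01 (limma, adjusted p under 0.05 for each). Of all genes 2.66% fell and 4.44% rose in this comparison. The number of genes called there was 784, against 48 with the cre covariate and 289 with the Actb ratio.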
